A study of Mus musculus with 8 samples.

Results

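The genes described here are 42 genes of the endothelium and of angiogenesis, the formation of blood vessels, measured in subcutaneous tumours of the mouse oropharyngeal carcinoma line MOPC. They were chosen by gene symbol in the platform annotation of the arrays, with the probe set of highest mean signal standing for each gene, and they are 42 of 18194 genes with such a symbol. Tumours came from C57BL/6 mice that lacked Tlr3, Tlr7 and Tlr9 (KO) or were wild type (WT), and were taken at day 6 or day 4 after injection of the cells. The groups were KO day 6, WT day 6, KO day 4 and WT day 4, with 2 arrays each and 8 arrays in all. All hosts received cells of the same MOPC line, so that host cells of every kind, and not the carcinoma cells, carried the mutation. According to the study's methods, mice of both sexes and of a range of ages were used, and neither is given for a single array. The methods describe the tumours of day 6, and for day 4 no source says whether each tumour had its own host, so the p-values measure the spread between samples, which may be technical.

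Blood vessels of a transplanted tumour grow in from the host. Endothelial cells line them, hold together through cadherin and claudin junctions, and respond to vascular endothelial growth factor (VEGF) through the receptors Kdr and Flt1 and to angiopoietins through Tek. New sprouts are led by tip cells, in which VEGF raises the Notch ligand Dll4, and Notch signalling in the neighbouring stalk cells limits further sprouting. Endothelial cells that are activated by inflammatory cytokines carry selectins and Vcam1, to which leukocytes attach before they leave the blood.

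The measured quantity is a linear signal intensity, which the authors had scaled to the same trimmed mean on every array, and the median signal of an array was between 133.2 and 175.2. Of the 42 genes, 40 reached the limit for testing, the 40th percentile of all probe sets by mean log2(signal + 16). That limit corresponds to a signal of 78.6. Fold changes were taken on the log2(signal + 16) scale, which understates the change of dim genes, and tested with limma over 12976 genes. A gene was called at an adjusted p under 0.05. The signals of different probe sets cannot be set against each other, so each gene is compared only between tumours. In tumour RNA, fewer endothelial cells and less RNA per endothelial cell cannot be told apart.

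The arrays differed in ways that the groups do not explain. Tlr7, a deleted gene, had signals of 80.1 and 10.8 in KO tumours and 471 and 466 in WT tumours at day 6, and 70 and 25.2 in KO tumours and 383 and 673 in WT tumours at day 4 (replicates 1 and 2 in turn, here and throughout). Tlr3 was lower in both KO tumours than in both WT tumours at each day. Tlr9, also deleted, had 124 and 84.2 in KO tumours and 20.8 and 58.5 in WT tumours at day 6, and 128.5 and 102 in KO tumours and 138 and 34.2 in WT tumours at day 4. It was thus higher in both KO tumours at day 6, against its label, and overlapped at day 4, and its mean over the 8 arrays lay below the limit for testing. Whether its probe set lies in the deleted part was not tested. Xist, which is transcribed in female cells, was between 5579 and 7121 in the tumours of day 6 and between 44.6 and 142.1 in those of day 4, and the Y-linked gene Eif2s3y was at 10.2 to 33 in those of day 6 and at 798 to 1177 in those of day 4, so that the sex of the hosts and the day cannot be told apart. The summed signal of 8 skeletal muscle genes was 758 and 48460.2 in KO and 1007 and 827 in WT tumours at day 6, and 913 and 21121 in KO and 865 and 124387 in WT tumours at day 4. KO day 6 replicate 2 also held cornified skin (Krt10 at 9762, against 599.4 or less on the other 7 arrays), and WT day 6 replicate 1 and WT day 4 replicate 2 held fat tissue (Adipoq at 2044 and 3174, against 811.5 or less on the others). The part of muscle, skin and fat tissue in the results was not tested, and counts are given with and without these arrays.

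The defining endothelial genes were present in every tumour. Pecam1, Cdh5, Tie1, Tek, Kdr and Esam, which together mark endothelium, were above the limit for testing on all 8 arrays. Prox1, the transcription factor that sets lymphatic identity, had signals of 3.0 to 34.9, and Mmrn1, an extracellular matrix glycoprotein of lymphatic endothelium and platelets, had signals of 35.1 to 55.6. Both lay below the limit on every array and were not tested. The lymphatic label therefore rested on Lyve1 and Flt4 alone, and Lyve1 is also made by tissue macrophages.

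Taken as deviations from each gene's mean over the 8 arrays, the median of the 42 genes was 0.22 and 0.03 in KO day 6 replicates 1 and 2, 0.44 and 0.12 in WT day 6, 0.11 and −0.00 in KO day 4 and −0.27 and −0.49 in WT day 4 (log2 scale). WT day 6 replicate 1 was thus the tumour richest in these transcripts, and both WT day 4 tumours were the poorest. The 2 arrays of WT day 6 differed from each other more than those of any other group.

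**Figure D1:**
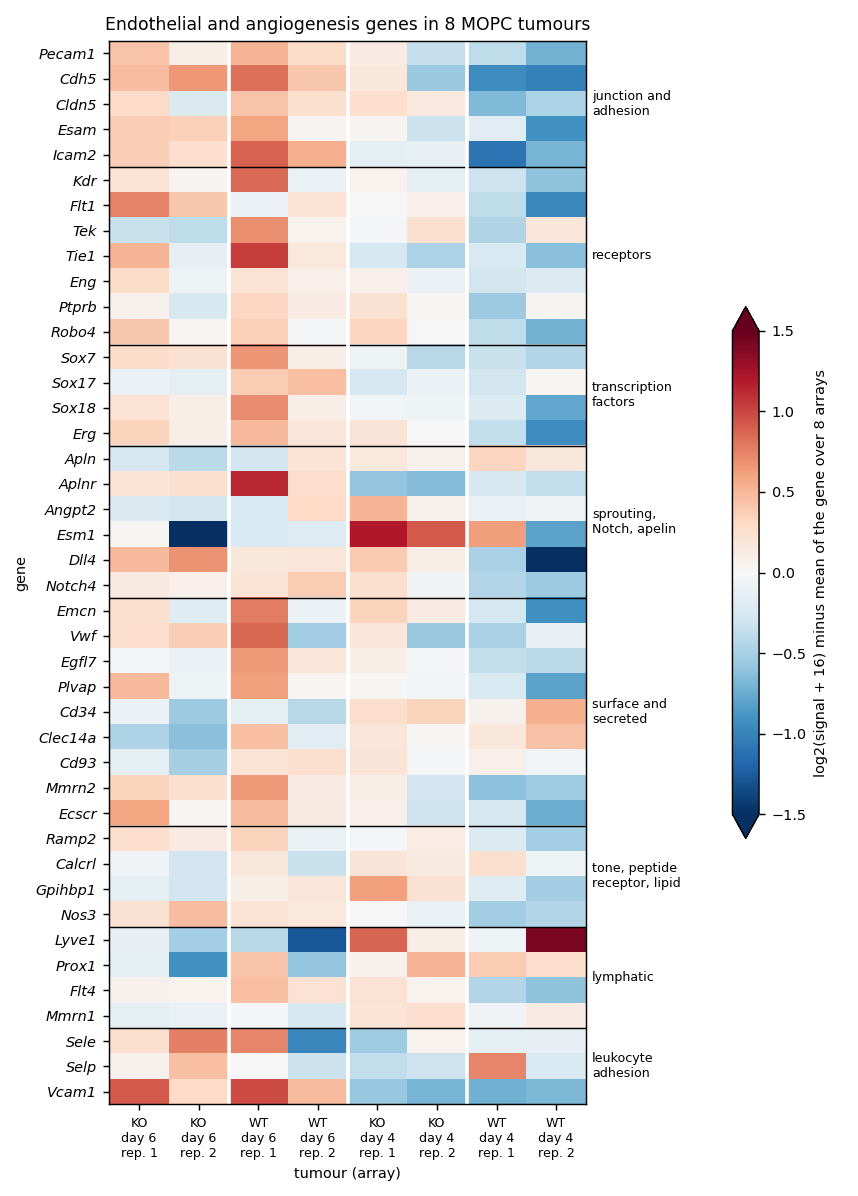
Heat map of the 42 endothelial and angiogenesis genes (rows, grouped by role) in the 8 tumours (columns, KO before WT and day 6 before day 4), with colour for log2(signal + 16) minus the gene's mean over the arrays. Most rows are red in WT day 6 replicate 1, where the median was 0.44, and blue in WT day 4, while Esm1, Cd34 and Lyve1 run the other way at day 4 on most arrays.

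Day 6 tumours of WT hosts were richer in endothelial transcripts than day 4 tumours of WT hosts. Of the 40 tested genes, 33 had a positive log2 fold change, the median was 0.75, and 11 rose by limma's test while 0 fell. Over all 12976 genes, 5.83% were called, 4.16% as higher and 1.66% as lower, and 51.1% had a positive fold change. In 29 of the 40, both tumours of day 6 were above both of day 4, against 29.1% of all genes, and in 2 both were below, against 24.6%. With 2 tumours against 2, the smallest two-sided p of an exact permutation test is 0.333, so the calls rest on the spread that limma shares across genes.

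Of the 5 genes of the cell junction, 4 were called as higher in WT hosts at day 6. Cdh5, or VE-cadherin, the adhesion molecule of endothelial junctions, had signals of 2706 and 2024 in WT tumours at day 6 and 783 and 750.1 in WT tumours at day 4. Its log2 fold change (day 6 over day 4, with the standard error, SE) was 1.59 (± 0.24 SE, limma adjusted p = 0.0179), and a dimmer probe set of Cdh5 gave 0.17. Icam2, a ligand for leukocyte integrins on resting endothelium, had signals of 1346 and 1064 at day 6 and 326 and 440.3 at day 4, for a log2 fold change of 1.62 (± 0.20 SE, limma adjusted p = 0.0132). The tumours of the earlier day stood well below those of the later day for both genes, without overlap. Pecam1, or CD31, the general marker of endothelium, had signals of 2687 and 2287 at day 6 and 1439 and 1142.5 at day 4, for a log2 fold change of 0.94 (± 0.20 SE, limma adjusted p = 0.0368). Cldn5, the claudin of endothelial tight junctions, had signals of 729 and 637 at day 6 and 333 and 381 at day 4, for a log2 fold change of 0.91 (± 0.21 SE, limma adjusted p = 0.0448). Esam, an immunoglobulin-type junction molecule, was also higher in both tumours of day 6 (3745 and 2537) than in both of day 4 (2213 and 1312.5), and was not called in WT hosts alone.

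The 7 growth factor receptors and their regulators all had a positive fold change in WT hosts, between 0.38 and 1.02, and 0 were called. Kdr, the main signalling receptor for VEGF, had signals of 1053 and 537 in WT tumours at day 6 and 463 and 376 in WT tumours at day 4. Its log2 fold change was 0.83 (± 0.29 SE, limma adjusted p = 0.125), or 0.35 without WT day 6 replicate 1 and 1.30 without WT day 6 replicate 2, and the distance between the tumours of day 6 exceeded that between the nearest tumours of the 2 days. Tie1, an orphan partner of the angiopoietin receptor, had 709 and 380.4 at day 6 and 287 and 213 at day 4. Flt1, a VEGF receptor that acts largely as a decoy, had 657.5 and 809.8 at day 6 and 536.5 and 351 at day 4. Tek, the receptor of angiopoietins, was the 1 of the 7 whose groups overlapped, with 945 and 599.8 at day 6 and 419 and 659 at day 4.

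Among the genes of sprouting, Notch and apelin signalling, 2 of 6 rose in WT hosts. Aplnr, the receptor of the peptide apelin on growing vessels, had signals of 13836 and 7567 in WT tumours at day 6 and 5317 and 4867 in WT tumours at day 4, for a log2 fold change of 1.01 (± 0.24 SE, limma adjusted p = 0.0451). Its value at day 6 rested in large part on replicate 1, without which the log2 fold change was 0.57. Notch4, the Notch receptor of endothelium, had 842 and 951 at day 6 and 530.0 and 494 at day 4, for a log2 fold change of 0.79 (± 0.17 SE, limma adjusted p = 0.0347). A dimmer probe set of Notch4 gave −0.34. Dll4, the Notch ligand of tip cells, had 339.9 and 341 at day 6 and 208 and 94.2 at day 4, with no overlap, and was not called. Apln, the ligand of Aplnr, and Esm1, a proteoglycan secreted by tip cells, overlapped between the days.

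The other calls in WT hosts were spread over the remaining roles. Mmrn2, a matrix glycoprotein that binds Clec14a and Cd93 on endothelium, had a log2 fold change of 0.96 (± 0.20 SE, limma adjusted p = 0.0344), and Egfl7, a secreted factor of endothelial cells, had 0.80 (± 0.17 SE, limma adjusted p = 0.0344). Nos3, which makes the nitric oxide that relaxes vessel walls, had signals of 779 and 748 at day 6 and 461 and 488 at day 4, for a log2 fold change of 0.67 (± 0.16 SE, limma adjusted p = 0.049). Vcam1, the adhesion molecule for leukocytes that carry the integrin VLA-4, had 4965 and 3494 at day 6 and 1514 and 1563 at day 4, for a log2 fold change of 1.43 (± 0.23 SE, limma adjusted p = 0.0197). Flt4, the receptor of VEGF-C, had a log2 fold change of 0.85 (± 0.19 SE, limma adjusted p = 0.0412) on its brighter probe set and −1.27 on a dimmer one. The mean of both was −0.21, so the direction of Flt4 depends on the probe set. The transcription factors Sox7, Sox17, Sox18 and Erg, which switch on endothelial genes, were all higher in both tumours of day 6 than in both of day 4, and 0 of the 4 were called in WT hosts alone.

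Of the 40 tested genes, 7 had a negative log2 fold change in WT hosts, and Lyve1 and Cd34 were the 2 among them without overlap of the days. Lyve1, a hyaluronan receptor of lymphatic vessels and of resident macrophages, had signals of 1733 and 954 in WT tumours at day 6 and 2215.5 and 6175 in WT tumours at day 4, for a log2 fold change of −1.51 (± 0.48 SE, limma adjusted p = 0.0925). Cd34, a sialomucin of capillaries and of progenitor cells in connective and fat tissue, had 7114 and 5872 at day 6 and 8232 and 11347 at day 4, for a log2 fold change of −0.58 (± 0.20 SE, limma adjusted p = 0.113). Both genes were lower in both tumours of day 6, and for both the highest value lay in WT day 4 replicate 2, the array with the most muscle and fat RNA. Without that array the log2 fold change was −0.78 for Lyve1 and −0.35 for Cd34.

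The count of calls in WT hosts depended on the arrays that set the spread. Without WT day 6 replicate 1 it was 0 of 40, with a median log2 fold change of 0.53. Without 1 of the other arrays it was 4 (KO day 6 replicate 1), 5 (KO day 6 replicate 2), 9 (WT day 6 replicate 2), 2 (KO day 4 replicate 1), 2 (KO day 4 replicate 2), 6 (WT day 4 replicate 1) and 3 (WT day 4 replicate 2). With KO day 6 replicate 2 and WT day 4 replicate 2 both left out, 4 were called as higher and 1 as lower, and with WT day 6 replicate 1 and WT day 4 replicate 2 both left out, 1 was called as higher and the median was 0.39. The median stayed above 0 in all of these. The share of all genes called under the same settings is not given, so a drop in the count may not be particular to these genes.

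**Figure D2:**
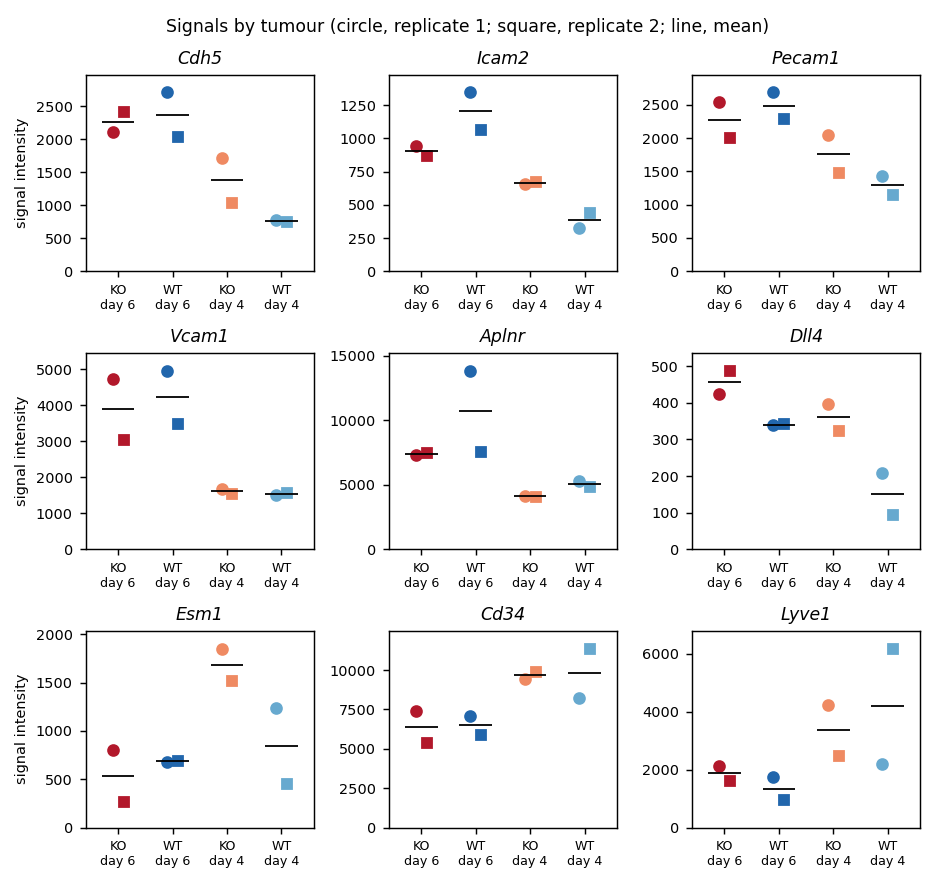
Signal intensity (linear scale) of 9 genes in the 8 tumours, with a circle for replicate 1, a square for replicate 2 and a line at the mean of each group. Cdh5, Icam2, Pecam1 and Vcam1 were higher at day 6 than at day 4 in every tumour but for the distance between KO day 6 replicate 2 (2008) and KO day 4 replicate 1 (2047) in Pecam1, and Esm1, Cd34 and Lyve1 had their highest signals at day 4.

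In KO hosts, the fold changes of the endothelial genes lay on both sides of 0 between day 6 and day 4, and Vcam1 was the gene called. Of the 40 tested genes, 25 had a positive log2 fold change, the median was 0.13, and 1 rose while 0 fell. Over all genes, 6.23% were called, 3.71% as higher and 2.52% as lower, and 50% had a positive fold change. Both tumours of day 6 were above both of day 4 in 16 genes and below in 11, against 30.7% of all genes in each direction. Dimmer probe sets of Vcam1 that reached the limit gave log2 fold changes of 1.21 and 0.09 in KO hosts. On its brightest probe set, Vcam1 had signals of 4741 and 3048.5 in KO tumours at day 6 and 1682 and 1542 in KO tumours at day 4, for a log2 fold change of 1.23 (± 0.23 SE, limma adjusted p = 0.0269). Without KO day 6 replicate 1 it was 0.91 and was not called. Aplnr had 7275 and 7468 at day 6 and 4175.5 and 4021 at day 4, for a log2 fold change of 0.84 (± 0.24 SE, limma adjusted p = 0.0689), with replicates close to each other at both days, and Cdh5 had 2104 and 2404 at day 6 and 1719 and 1035 at day 4, for a log2 fold change of 0.75 (± 0.24 SE, limma adjusted p = 0.096), or 0.38 without KO day 4 replicate 2.

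Several genes lay in the other direction in KO hosts. Esm1 had signals of 803 and 263.5 in KO tumours at day 6 and 1849 and 1520.2 in KO tumours at day 4, for a log2 fold change of −1.82 (± 0.54 SE, limma adjusted p = 0.0788). The tumours of day 6 lay far apart and both below those of day 4, and without KO day 6 replicate 2, the array with skin RNA, the log2 fold change was −1.05. Clec14a, a C-type lectin of tumour endothelium, had 237 and 211 at day 6 and 378 and 336 at day 4, for a log2 fold change of −0.64 (± 0.26 SE, limma adjusted p = 0.159). Lyve1 had 2121 and 1628 at day 6 and 4246.5 and 2492 at day 4, for a log2 fold change of −0.80 (± 0.48 SE, limma adjusted p = 0.321). Pecam1 and Kdr had log2 fold changes of 0.37 and 0.17 with limma adjusted p = 0.284 and 0.747.

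**Figure D3:**
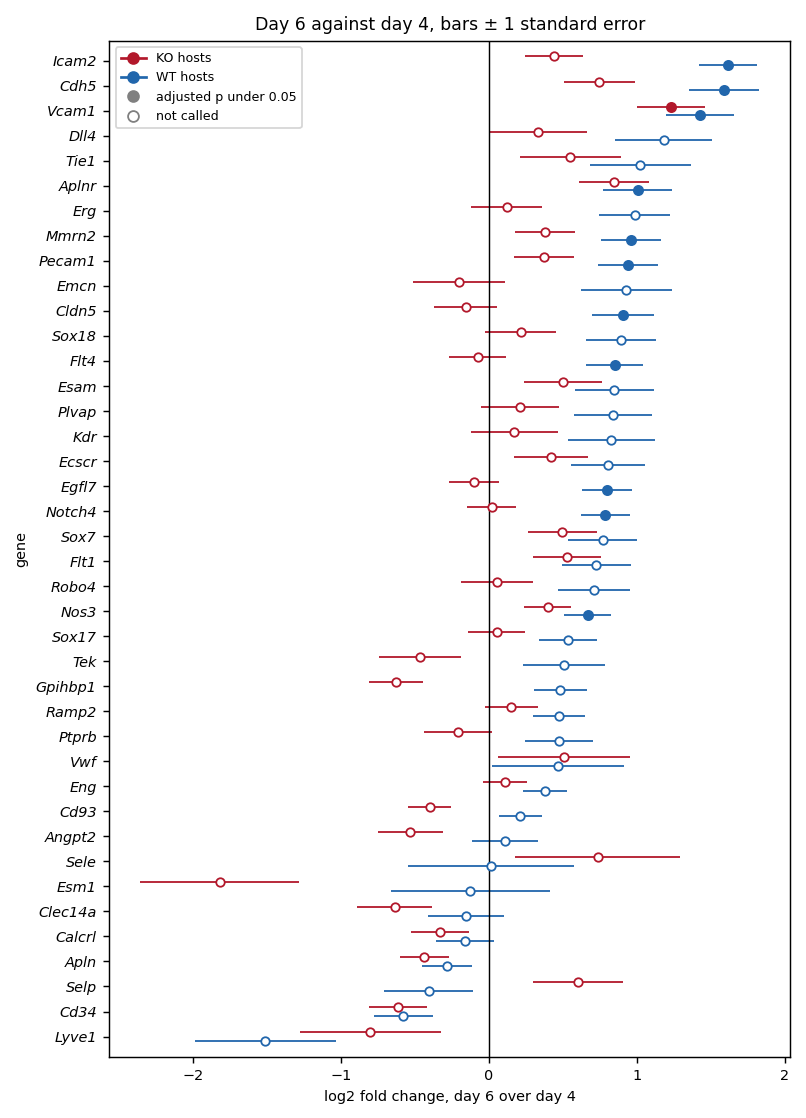
Log2 fold change of day 6 over day 4 (horizontal axis) for the 40 tested genes (vertical axis, ordered by the value in WT hosts) in KO hosts (red) and WT hosts (blue), with bars of 1 standard error and filled points for genes called by limma. The filled points number 1 in KO and 11 in WT hosts, and the blue points lie to the right of the red ones for most genes. The exceptions include Selp, Sele and Lyve1.

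Over both genotypes, with 4 tumours of day 6 against 4 of day 4, 16 of the 40 genes rose and 2 fell, with a median log2 fold change of 0.38. A positive fold change was found in 31 of the 40 and in 49.8% of all genes. Over all genes, 23.2% were called, 13.6% as higher and 9.56% as lower. By role, 4 of 5 junction genes, 2 of 7 receptors, 3 of 4 transcription factors, 3 of 6 genes of sprouting, Notch and apelin, 2 of 9 surface and secreted proteins, 1 of 4 genes of vessel tone and lipid handling and 1 of 3 leukocyte adhesion genes rose. In 10 genes every tumour of day 6 was above every tumour of day 4, against 15.7% of all genes, and in 2 every one was below, against 11.6%. The 4 largest rises were in Vcam1 at 1.33 (± 0.16 SE, limma adjusted p = 0.0026), Cdh5 at 1.17 (± 0.17 SE, limma adjusted p = 0.00417), Icam2 at 1.03 (± 0.14 SE, limma adjusted p = 0.00332) and Aplnr at 0.93 (± 0.17 SE, limma adjusted p = 0.00787). Cdh5 and Vcam1 kept their call under all 20 alternatives that were run for them, and Icam2 and Aplnr under 19 of 20.

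Further genes that rose over both genotypes were Tie1 at 0.79 and Flt1 at 0.63 among the receptors (limma adjusted p = 0.0474 and 0.0277), and Sox7 at 0.63, Sox18 at 0.55 and Erg at 0.55 among the transcription factors (limma adjusted p = 0.0278, 0.0473 and 0.0494). A dimmer probe set of Flt1 gave 0.02, though other dimmer ones gave 0.56 and 0.68, and a dimmer probe set of Erg gave 0.04. Dll4 at 0.76 and Notch4 at 0.40 rose as well (limma adjusted p = 0.048 and 0.0412), though the mean of all probe sets of Notch4 gave −0.31 and a dimmer probe set of Dll4 gave 0.12. These calls were less stable than those of Vcam1, Cdh5, Icam2 and Aplnr, since Dll4 kept its call under 3 of 19 alternatives, and Notch4, Erg, Sox18 and Tie1 kept theirs under 5, 6, 7 and 8 of 20. Esam, Pecam1, Mmrn2, Ecscr and Nos3 had log2 fold changes of 0.67, 0.66, 0.67, 0.61 and 0.53 (limma adjusted p = 0.0348, 0.0151, 0.0137, 0.0389 and 0.0135). In the same order, these genes kept their call under 10, 16, 18, 9 and 17 of 20 alternatives. Ecscr encodes a surface protein that moderates endothelial movement. Kdr did not pass, at 0.50 (± 0.21 SE, limma adjusted p = 0.116). The genes that fell were Lyve1 at −1.16 (± 0.34 SE, limma adjusted p = 0.0397) and Cd34 at −0.60 (± 0.14 SE, limma adjusted p = 0.0189), with calls kept under 7 and 15 of 20 alternatives.

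Beside the fall of Lyve1 and Cd34, genes of other cell types also stood lower at day 6. The summed signal of 6 fibroblast genes was 135838 and 128740.0 in KO and 116794 and 143489 in WT tumours at day 6, and 154993 and 147866 in KO and 178640.0 and 172056 in WT tumours at day 4, without overlap of the days, and Dcn, the matrix proteoglycan of fibroblasts, had 13688 and 12516 in KO and 12775 and 17787 in WT tumours at day 6, and 19919 and 21549 in KO and 26814 and 29787 in WT tumours at day 4. The summed signal of 6 macrophage genes overlapped between the days, at 84149 to 91391 at day 6 and 76429 to 104703 at day 4, with the highest sum in WT day 4 replicate 2. Their part in the fall of Lyve1 and Cd34 was not tested. Without WT day 4 replicate 2 the log2 fold change over both genotypes was −0.79 for Lyve1 and −0.48 for Cd34. Leaving out each array in turn kept the median log2 fold change of the tested genes over both genotypes between 0.30 and 0.51. The lowest median was without WT day 6 replicate 1 and the highest without WT day 6 replicate 2. The count of calls moved as well, and its range is given below with the processing.

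The 250 bases before the transcription start of these genes were read for motifs of the endothelial transcription factors. Endothelial genes are known for binding sites of ETS factors such as Erg, whose core is spelled AGGAAG here, with CGGAAG as a second spelling, and the motif ACAATG is the core of SOX factors such as Sox7, Sox17 and Sox18. The motifs were searched on both strands in RefSeq promoters of the mouse build GRCm38.p6, where 22 of the 42 genes matched with 27 promoters. Either spelling of the ETS core was found in 51.9% of these 27 and in 39.2% of all 32851 promoters, and ACAATG in 14.8% and 10.7%. AGGAAG alone stood in 51.9% and 29.5%, and CGGAAG alone in 3.7% and 13.6%. These are descriptions of letters in a window, and a window without them says nothing of the factor. Tie1 and Flt1, called as higher over both genotypes, Cldn5, called in WT hosts, and Cd34, which fell, are shown 5′ to 3′ on the strand of the gene, with either spelling of the ETS core, on either strand, in capitals. Tie1 lies at chr4:118489850-118490099, minus strand, Flt1 at chr5:147726012-147726261, minus strand, Cldn5 at chr16:18776597-18776846, plus strand and Cd34 at chr1:194938571-194938820, plus strand.
Tie1: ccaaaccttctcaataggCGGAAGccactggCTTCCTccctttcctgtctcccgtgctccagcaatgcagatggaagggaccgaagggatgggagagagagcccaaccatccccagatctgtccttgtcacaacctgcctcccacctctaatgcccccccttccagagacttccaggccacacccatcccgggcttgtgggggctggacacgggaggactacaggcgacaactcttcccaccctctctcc
Flt1: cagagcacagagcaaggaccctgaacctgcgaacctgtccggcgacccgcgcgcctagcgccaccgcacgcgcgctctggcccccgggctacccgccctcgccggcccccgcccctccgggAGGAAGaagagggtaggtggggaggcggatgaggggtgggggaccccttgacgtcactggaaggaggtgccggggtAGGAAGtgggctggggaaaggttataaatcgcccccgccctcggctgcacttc
Cldn5: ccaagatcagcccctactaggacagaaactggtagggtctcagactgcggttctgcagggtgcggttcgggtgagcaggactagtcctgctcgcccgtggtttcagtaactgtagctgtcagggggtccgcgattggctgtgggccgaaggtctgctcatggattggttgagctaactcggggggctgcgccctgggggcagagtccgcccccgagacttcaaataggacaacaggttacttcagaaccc
Cd34: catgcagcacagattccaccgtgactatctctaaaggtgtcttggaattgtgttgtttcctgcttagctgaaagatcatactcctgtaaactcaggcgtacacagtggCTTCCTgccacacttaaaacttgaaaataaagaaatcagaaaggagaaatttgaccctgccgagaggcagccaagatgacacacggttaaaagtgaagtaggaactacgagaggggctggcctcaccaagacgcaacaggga
The windows of Tie1 and Flt1 held 2 such sites each, that of Cd34 held 1, and that of Cldn5 held 0.

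At day 4, most endothelial genes were higher in KO than in WT tumours, without a call. Of the 40 tested genes, 32 had a positive log2 fold change of KO over WT, against 51.7% of all genes, and the median was 0.40. By limma's test 0 of 40 were called in either direction, as were 0.0154% of all genes. At an unadjusted p under 0.05, 14 were higher and 0 lower, against 3.85% and 3.26% of all genes. Both KO tumours were above both WT tumours in 22 genes and below in 3, against 19.6% and 16.8% of all genes. By the methods' t-test without adjustment, 4 were higher and 1 lower, against 3.65% and 2.63% of all genes. Leaving out each array in turn kept the median between 0.28 and 0.49. The WT tumours of day 4 used here are the same arrays against which the WT tumours of day 6 were set. Markers of macrophages and fibroblasts lay the other way at day 4. All 6 macrophage genes had a negative log2 fold change of KO over WT, with a median of −0.49, 0 called and 4 lower at an unadjusted p under 0.05, and their summed signal was 82866 and 76429 in KO and 92078 and 104703 in WT tumours. All 6 fibroblast genes were negative too, with a median of −0.29, 0 called and 1 lower at an unadjusted p under 0.05. The part of these cell types in the day 4 result was not tested.

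The 3 highest fold changes at day 4 were in genes of the growing vessel front and the capillary surface. Dll4 had signals of 398 and 322 in KO and 208 and 94.2 in WT tumours at day 4, for a log2 fold change of 1.25 (± 0.33 SE, limma adjusted p = 0.466). The low value of WT day 4 replicate 2 carried part of this, and without that array the log2 fold change was 0.74. Esm1 had 1849 and 1520.2 in KO and 1239.7 and 449 in WT tumours, for a log2 fold change of 1.15 (± 0.54 SE, limma adjusted p = 0.731), or 0.43 without WT day 4 replicate 2. Emcn, a sialomucin of capillaries and veins, had 2176 and 1891.5 in KO and 1441 and 903 in WT tumours, for a log2 fold change of 0.82 (± 0.31 SE, limma adjusted p = 0.648), or 0.49 without WT day 4 replicate 2. In all these genes the WT array with muscle and fat RNA was the lowest of the 4.

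All 5 junction genes and all 7 receptors and regulators had positive fold changes at day 4, with medians of 0.76 and 0.38. Cdh5 had signals of 1719 and 1035 in KO and 783 and 750.1 in WT tumours, for a log2 fold change of 0.79 (± 0.24 SE, limma adjusted p = 0.539), or 0.43 without KO day 4 replicate 1. The KO tumours differed more from each other than the WT tumours did, and both were above them. A dimmer probe set of Cdh5 that reached the limit for testing gave −0.16, so the direction of Cdh5 at day 4 depends on the probe set. Pecam1 had 2047 and 1482 in KO and 1439 and 1142.5 in WT tumours, for a log2 fold change of 0.44 (± 0.20 SE, limma adjusted p = 0.731), or 0.21 without KO day 4 replicate 1, and Kdr had 602 and 521 in KO and 463 and 376 in WT tumours, for a log2 fold change of 0.41 (± 0.29 SE, limma adjusted p = 0.864). Icam2 had 655 and 670.3 in KO and 326 and 440.3 in WT tumours. Gpihbp1, which carries lipoprotein lipase to the capillary surface, had 2125 and 1619 in KO and 1221 and 961 in WT tumours, also without overlap.

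The genes that lay lower in both KO tumours at day 4 were Selp, Aplnr and Apln. Selp, or P-selectin, on which leukocytes roll, had signals of 482 and 501 in KO and 1049 and 531 in WT tumours, for a log2 fold change of −0.59 (± 0.30 SE, limma adjusted p = 0.768). The groups differed by less than the distance between the 2 WT tumours, and without WT day 4 replicate 1 the log2 fold change was −0.11. Aplnr and Apln had log2 fold changes of −0.31 and −0.14 with 95% intervals of −0.85 to 0.23 and −0.52 to 0.25 (limma adjusted p = 0.881 and 0.951).

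At day 6, most endothelial genes were lower in KO than in WT tumours, without a call. Of the 40 tested genes, 10 had a positive log2 fold change, against 48.3% of all genes, and the median was −0.13. By limma's test 0 were called, as were 0.0154% of all genes, and at an unadjusted p under 0.05, 5 were lower and 0 higher, against 4.01% and 2.34% of all genes. The methods' t-test without adjustment gave 0 higher and 1 lower, against 2.34% and 3.52% of all genes. Both KO tumours were below both WT tumours in 11 genes and above in 4, against 20.9% and 16.1%. The sign of the median rested on WT day 6 replicate 1, the tumour with fat RNA and the highest endothelial signals, since without it the median was 0.08. Leaving out the other arrays in turn gave −0.35 to −0.05.

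Cd93, a lectin-like receptor of endothelium and myeloid cells, had signals of 6167 and 4812 in KO and 7840.0 and 8055 in WT tumours at day 6, for a log2 fold change of −0.54 (± 0.15 SE, limma adjusted p = 0.713). The WT tumours were close to each other and both above the KO tumours. Tek had 456 and 438 in KO and 945 and 599.8 in WT tumours, for a log2 fold change of −0.73 (± 0.28 SE, limma adjusted p = 0.76), and Clec14a had 237 and 211 in KO and 461 and 296 in WT tumours, for a log2 fold change of −0.69 (± 0.26 SE, limma adjusted p = 0.76). For both, the WT tumours spread over a wider range than the KO tumours, and without WT day 6 replicate 1 the values were −0.41 and −0.38. Sox17, the transcription factor of arterial endothelium, was also lower in both KO tumours, with 395 and 379.8 in KO and 552 and 582 in WT tumours.

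Flt1, Selp and Dll4 were the highest of the 4 genes that lay above WT in both KO tumours at day 6. Flt1 had signals of 1186 and 930.5 in KO and 657.5 and 809.8 in WT tumours, for a log2 fold change of 0.52 (± 0.23 SE, limma adjusted p = 0.792). Selp had 658 and 862 in KO and 628 and 497 in WT tumours, for a log2 fold change of 0.42 (± 0.30 SE, limma adjusted p = 0.864), and Dll4 had 425 and 487.5 in KO and 339.9 and 341 in WT tumours, for a log2 fold change of 0.40 (± 0.33 SE, limma adjusted p = 0.877). A dimmer probe set of Dll4 gave −0.37 and the mean of both gave 0.017, so the direction of Dll4 at day 6 depends on the probe set. The fourth was Nos3, with 785 and 926 in KO and 779 and 748 in WT tumours. Pecam1, Cdh5 and Kdr had log2 fold changes of −0.13, −0.06 and −0.24, with 95% intervals of −0.60 to 0.33, −0.60 to 0.49 and −0.91 to 0.43, so that for none of them was a direction set by these arrays. Sele, or E-selectin, which cytokines induce on endothelium, had 121 and 179.5 in KO and 177 and 42.7 in WT tumours, with overlap.

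**Figure D4:**
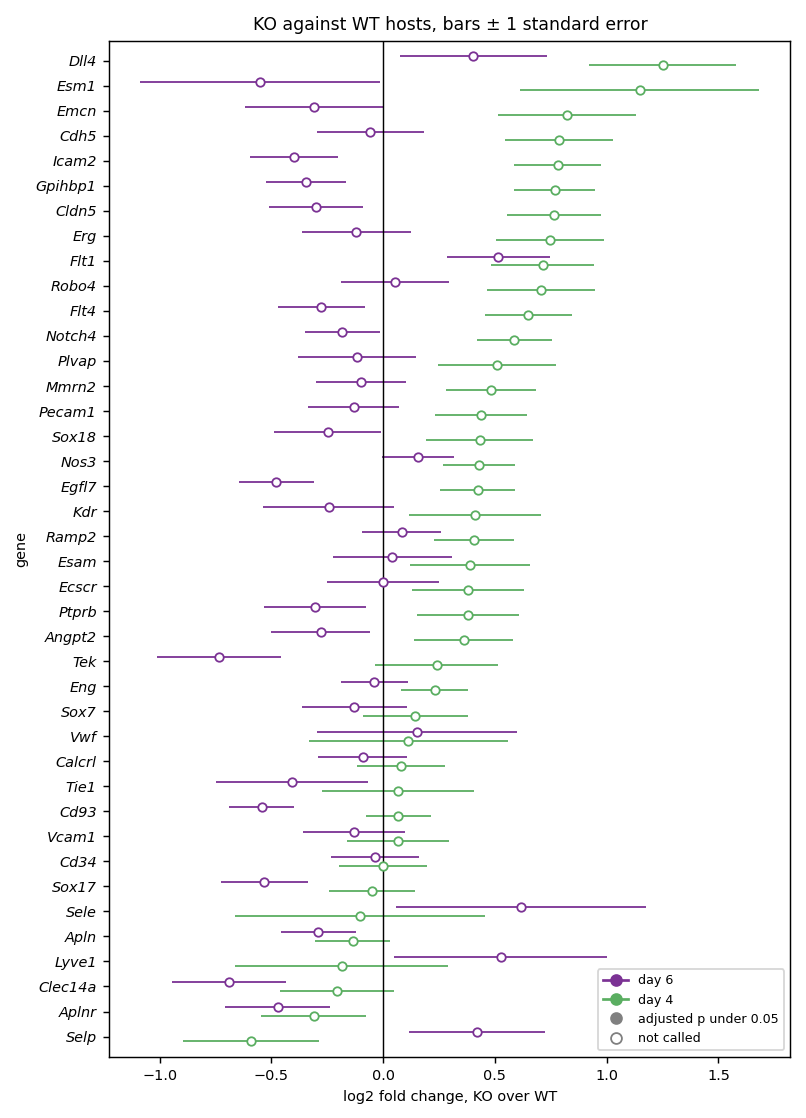
Log2 fold change of KO over WT (horizontal axis) for the 40 tested genes (vertical axis, ordered by the value at day 4) at day 6 (purple) and day 4 (green), with bars of 1 standard error. Open points mark genes that limma did not call, which are all 40 at both days. The green points lie right of 0 for 32 genes and the purple points for 10.

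Over both days, KO against WT gave 0 calls among the 40 genes, against 0.0308% of all genes, with 3 higher and 3 lower at an unadjusted p under 0.05 (3.91% and 4.78% of all genes) and a median log2 fold change of 0.16. In 0 genes were all 4 KO tumours on 1 side of all 4 WT tumours, against 2.3% of all genes. Pecam1, Cdh5 and Kdr had log2 fold changes of 0.15, 0.37 and 0.08 (limma adjusted p = 0.809, 0.601 and 0.947). The dimmer probe set of Cdh5 gave −0.17.

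Whether the genotype effect differed between the days was tested as the KO effect at day 6 minus that at day 4. The median of the 40 genes was −0.58, 36 were negative, and 0 were called, as were 0% of all genes. At an unadjusted p under 0.05, 11 were lower and 1 higher, against 2.34% and 2.03% of all genes. Among all genes 45.9% had a positive difference, and among these 40 it was 4 genes. The largest negative differences were Esm1 at −1.70 (± 0.76 SE, limma adjusted p = 0.995), Icam2 at −1.18 (± 0.28 SE, limma adjusted p = 0.995) and Emcn at −1.13 (± 0.44 SE, limma adjusted p = 0.995), and the largest positive ones Selp at 1.01, Sele at 0.72 and Lyve1 at 0.71, with 95% intervals of 0.03 to 1.99, −1.09 to 2.53 and −0.83 to 2.25. The difference for Esm1 was −0.92 without KO day 6 replicate 2 and −0.98 without WT day 4 replicate 2, and −0.20 with both left out, and that for Emcn was −0.70 without WT day 6 replicate 1. Leaving out each array in turn gave medians of −0.70 to −0.36, and with the WT arrays that held fat RNA both left out the median was −0.29.

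In 5 of the 40 genes, both KO tumours were below both WT tumours at day 6 and above both at day 4, which held for 2.75% of all genes. They were Flt4, Icam2, Egfl7, Gpihbp1 and Notch4. The dimmer probe set of Flt4 ran the opposite way, with log2 fold changes of KO over WT of 0.96 at day 6 and −0.22 at day 4, and the dimmer one of Notch4 that reached the limit gave −0.18 and −0.03. Icam2 had signals of 942.5 and 867 in KO and 1346 and 1064 in WT tumours at day 6, and 655 and 670.3 in KO and 326 and 440.3 in WT tumours at day 4. Egfl7 had 1172.5 and 1117 in KO and 1875 and 1365 in WT tumours at day 6, and 1272 and 1187 in KO and 920.4 and 905.5 in WT tumours at day 4. In Egfl7 the 4 KO tumours lay within a narrow range, and the WT tumours lay above it at day 6 and below it at day 4.

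The other genes of angiogenic signalling did not move as a group with the endothelial genes. Of 23 tested ligands and co-receptors, 4 rose and 4 fell at day 6 against day 4 over both genotypes, with a median of −0.04. Among all genes, 13.6% rose and 9.56% fell. Vegfa, the main ligand of Kdr, had signals of 4898 and 4394 in KO and 2951 and 6367 in WT tumours at day 6, and 8724 and 7218.5 in KO and 10639 and 8049.5 in WT tumours at day 4. Every tumour of day 6 was below every tumour of day 4, for a log2 fold change of −0.93 (± 0.22 SE, limma adjusted p = 0.0197) over both genotypes. Vegfd, a ligand of Flt4 in mice, also fell, at −0.79, as did the angiogenesis inhibitors Thbs2 and Thbs1 at −0.64 and −0.36. Angpt1, the activating ligand of Tek, had 1296 and 1267 in KO and 1354 and 2020.0 in WT tumours at day 6, and 705 and 774 in KO and 575 and 786 in WT tumours at day 4, for a log2 fold change of 1.03 (± 0.16 SE, limma adjusted p = 0.00457). Slit2, the secreted guidance cue of the Robo receptors, rose in KO hosts at 1.07 and in WT hosts at 1.39 (limma adjusted p = 0.0134 and 0.0101). Between KO and WT tumours, Vegfa had log2 fold changes of 0.10 at day 6, −0.22 at day 4 and −0.06 over both days. Of the 23, 0 were called at either day, as were 0.0154% of all genes at each.

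Of 20 other endothelial transcription factors and Notch targets, 5 rose and 4 fell over both genotypes, against 13.6% and 9.56% of all genes. Klf2, which blood flow induces in endothelium, had signals of 1023 and 1121 in KO and 1110.4 and 1049.6 in WT tumours at day 6, and 2569 and 1746 in KO and 1604 and 1958 in WT tumours at day 4, for a log2 fold change of −0.84 (± 0.14 SE, limma adjusted p = 0.00602). Klf4, a related factor, fell at −0.43, and Epas1, or HIF-2α, Hes1, a Notch target, and Ets1 rose at 0.71, 0.61 and 0.52. Of 15 pericyte and smooth muscle genes, 2 rose and 2 fell, against the same shares of all genes. Pdgfrb, the receptor through which endothelium recruits pericytes, had 6171.5 and 7048 in KO and 8540.0 and 8009 in WT tumours at day 6, and 4637 and 4075 in KO and 3142 and 3889 in WT tumours at day 4, for a log2 fold change of 0.92 (± 0.10 SE, limma adjusted p = 0.00225), and Myh11, the myosin of smooth muscle, fell at −1.02. At day 6, 2 of the 15 had a positive log2 fold change of KO over WT, against 48.3% of all genes. The fold change was negative in 13, with a median of −0.36 and 0 called. The median deviation of the 16 genes measured was −0.13 and −0.29 in KO and 0.21 and −0.01 in WT tumours at day 6. WT day 6 replicate 1, a tumour with fat RNA, thus stood highest, and the value without it was not taken for this list. Of 12 other genes of leukocyte adhesion and trafficking, 2 rose over both genotypes and 0 fell, against the same shares of all genes. These were Icam1 at 0.73 and Itgal, an integrin chain of leukocytes, at 0.61.

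**Figure D5:**
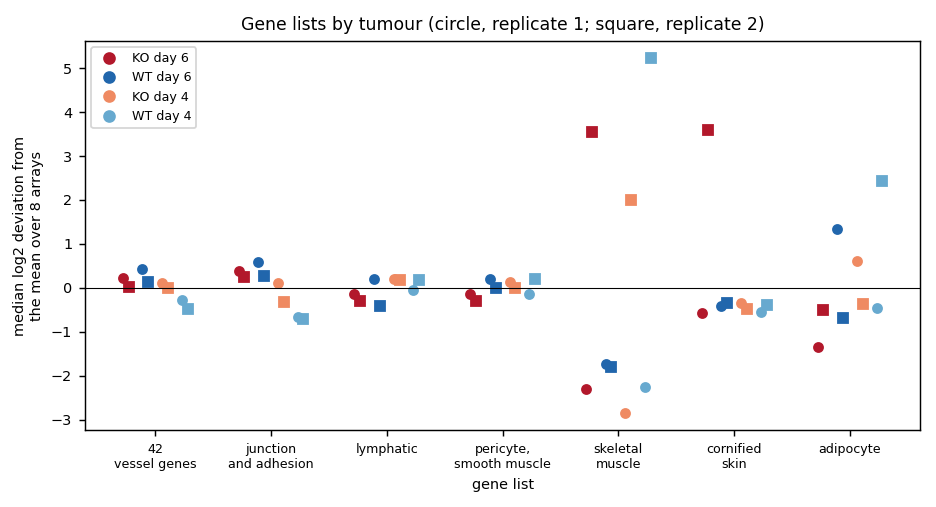
Median log2 deviation from the mean over 8 arrays (vertical axis) of 7 gene lists (horizontal axis) in each tumour, with circles for replicate 1 and squares for replicate 2, and with colours for KO day 6, WT day 6, KO day 4 and WT day 4. The 42 vessel genes and the junction genes lie lowest in WT day 4, and the muscle, skin and fat lists pick out single tumours.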

How the data were processed

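RNA from 8 tumours was hybridised to Affymetrix mouse arrays of 45101 probe sets. The authors deposited 1 linear signal intensity per probe set, made with MAS5 (named in the submitters' processing notes, version not given in the sources used here) and scaled to a 2% trimmed mean of 1000 per array. The scaling makes each signal relative to the other signals of its array. The platform annotation gave 34958 probe sets 1 gene symbol, 932 several and 9211 none, and 34754 matched a gene table of GRCm38.p6 by Entrez identifier. Each of 18194 genes was represented by its brightest probe set, and 12976 at or above the 40th percentile were tested. Log2(signal + 16) values entered 1 linear model of 4 groups (limma 3.58.1, R 4.3.3), with a trend in the variance and 4 residual degrees of freedom, in 7 comparisons, and p-values were adjusted by Benjamini-Hochberg over all tested genes. The number of arrays limits the precision.

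The members, their roles, the 4 lists of related genes and the 11 lists of cell type markers were chosen with earlier results of these data known. Fold changes with tests are given for genes called in a comparison, for the 3 highest and 3 lowest without overlap of the groups, and for Pecam1, Cdh5, Kdr and Vegfa. From each list of related genes at most 4 called genes per direction and 2 others are named. Tlr3, Tlr7 and Tlr9 are shown as a check of the labels. The fit was tested on simulated data. Whether equal replicate numbers mark paired samples is not known, so the main model had no block. The alternatives tried were other scalings (quantile or median), pseudocounts and filters, the mean of all probe sets, a model of only the compared groups, a variance without trend, the replicate block, leaving out arrays, and the t-test of the methods. Promoter windows came from RefSeq.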

Additional observations from a re-analysis of the deposited data

How the results depend on the processing

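With 2 arrays a group and 4 residual degrees of freedom, counts of calls moved more than medians. The counts in this section stand without the share of all genes called under the same setting. A change in a count may therefore not be particular to these genes. In WT hosts, the 11 genes called as higher at day 6 became 18 with median centring (which shifted the median of all genes by 0.19), 6 with no filter, 7 with the mean of all probe sets and 0 with the compared groups alone, without a variance trend or by the t-test of the methods after adjustment. The median was 0.93 with median centring. With KO day 6 replicate 2 and WT day 4 replicate 2 (the muscle-rich pair, chosen after seeing the data, as was the next pair) both left out, 4 were higher and 1 lower, and with WT day 6 replicate 1 and WT day 4 replicate 2 (the WT pair) both left out 1 was higher and the median was 0.39. Flt4 reversed to −0.21 with the mean of all probe sets. In KO hosts, the 1 higher call became 2 with median centring (median 0.30), 0 with the mean of all probe sets, without a trend or by the adjusted t-test, 2 (and 2 lower) with the compared groups alone, with the WT pair left out or by the unadjusted t-test, and 1 was lower with the muscle-rich pair left out. Over both genotypes, the 16 higher and 2 lower became 10 and 1 with no filter, with the mean of all probe sets (Notch4 reversed to −0.31) and with the muscle-rich pair left out, 7 higher with the WT pair left out, 1 lower without a trend, and 3 and 1 by the adjusted t-test. Median centring gave a median of 0.56. The cause of these shifts was not tested.

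Between KO and WT tumours no alternative with adjusted p-values called a gene of the 40. The unadjusted t-test gave 1 lower at day 6, and 4 higher and 1 lower at day 4. At day 6, Cdh5 turned to 0.0033 with median centring, Pecam1 to 0.037 with the muscle-rich pair left out, and Cdh5, Kdr and Vegfa to 0.15, 0.23 and −0.46 with the WT pair left out, where the median was 0.078. Vegfa over both days turned to 0.0075 and 0.065 with median centring and the mean of all probe sets. The median difference of the KO effects was −0.31 with the muscle-rich pair and −0.29 with the WT pair left out, where Vegfa turned to −0.033.

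Leaving out each array in turn gave 0 to 9 higher and 0 to 1 lower in WT hosts (median 0.53 to 0.93), 0 to 2 higher and 0 to 2 lower in KO hosts (median 0.01 to 0.24), and 4 to 15 higher and 0 to 2 lower over both genotypes (median 0.30 to 0.51). The medians of KO against WT were −0.35 to 0.078 at day 6, 0.28 to 0.49 at day 4 and 0.05 to 0.24 over both days, with 0 called throughout, and −0.70 to −0.36 for the difference of the KO effects. In the same way, KO against WT at day 6 ranged over −0.30 to 0.037 for Pecam1, −0.26 to 0.15 for Cdh5, −0.72 to 0.23 for Kdr and −0.46 to 0.65 for Vegfa, and over both days −0.15 to 0.32 for Kdr and −0.34 to 0.21 for Vegfa. The difference of the KO effects ranged over −2.47 to −0.92 for Esm1, −0.14 to 1.58 for Sele, −0.026 to 1.45 for Lyve1 and −0.23 to 0.87 for Vegfa.

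The correlations of replicate deviations between groups were −0.12 to 0.27. They were 0.21 to 0.27 among KO day 6, KO day 4 and WT day 4, where replicate 2 held the muscle RNA. Such correlations cannot show whether the numbers pair the samples. With the replicate block, 15 genes were higher over both genotypes in place of 16, and the other counts did not change. The t-test was not run for the difference of the KO effects, nor the compared groups alone for the comparisons that use all groups.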

Other observations

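The 42 genes had 37 further probe sets, of which 28 reached the limit for testing. Of these 28, 25 had the direction of the brightest probe set of their gene for KO against WT at day 6, 22 at day 4, 21 for day 6 against day 4 in KO hosts, 23 in WT hosts and 24 over both genotypes. The dimmer probe set of Cdh5 gave a log2 fold change of 0.17 for day 6 against day 4 in WT hosts, against 1.59 for the brighter one.

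Of 3 red cell genes measured, 1, Alas2, reached the limit for testing, and it differed between the days. Below the limit, Slc4a1 was also lower in every tumour of day 6 (3.7 to 33) than of day 4 (64.2 to 105.4). Hba-a1, also below it, had 48.9 and 5.7 in KO and 59.6 and 39.4 in WT tumours at day 6. At day 4 Hba-a1 had 16.8 and 61.4 in KO and 11.4 and 13.6 in WT tumours, so it ran the other way in WT hosts. Alas2, which makes haem in red cell precursors, had signals of 21.1 and 54.2 in KO and 52 and 52.9 in WT tumours at day 6, and 222 and 429.5 in KO and 617 and 755 in WT tumours at day 4, so that every tumour of day 6 was below every tumour of day 4 while most endothelial genes were higher. Ptprc, the CD45 gene of leukocytes, had 7082.5 and 5974 in KO and 7592 and 7408 in WT tumours at day 6, and 5177 and 4631 in KO and 5405 and 9159.8 in WT tumours at day 4, with overlap of the days.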
